A study of Homo sapiens with 12 samples.

Results

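The comparison described here set parental A549 cells (WT) treated with poly(I:C) against A549 RNase L knockout cells (RLKO) given the same treatment. A549 is an established human lung carcinoma line of epithelial origin, and poly(I:C) is a synthetic double-stranded RNA that imitates viral RNA. Both lines were transfected with poly(I:C) at 500 ng/ml and harvested 6 h later, and each line also had an untreated group. Total RNA from 12 samples, 3 for each of the 4 combinations of line and treatment, was depleted of ribosomal RNA after synthetic ERCC spike-in RNAs had been added. The sources used here do not give how the knockout was made or whether the line is 1 clone. The genes compared were all rows with a usable estimate that reached 1 FPKM (fragments per kilobase of transcript, scaled to the fragments sequenced) or more in either treated column, which gave 21269 of 58671 gene rows, 12004 of them protein-coding.

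RNase L is a latent endoribonuclease of the innate immune system. Double-stranded RNA activates the oligoadenylate synthetases (OAS1, OAS2 and OAS3), which make short 2-5A oligonucleotides. Binding of 2-5A makes RNase L dimerise and cut single-stranded RNA, mostly at UA and UU dinucleotides, in cellular and viral RNA alike. The questions were what the measured transcriptome consisted of with and without RNase L, and which genes differed.

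The authors deposited 1 pooled FPKM value per group, so each value below is that of 3 samples together and no replicate error or test is available. "At least 2-fold" therefore means a log2 ratio of treated WT to treated RLKO of 1 or more in size, after 1 FPKM was added to each value, which understates the ratio of low genes. A value of treated WT relative to treated RLKO includes any difference that the lines had before treatment, and untreated values are given for many of the genes and lists below. FPKM values are relative: a gene can be lower because other RNAs take up more of a library. Less RNA per cell and fewer cells giving RNA cannot be told apart in such bulk samples.

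Of 8 epithelial markers, 7 reached 1 FPKM in treated cells, and their summed level was 1644 FPKM in treated WT and 3002 FPKM in treated RLKO. The other marker lists of 8 genes each were low. Alveolar type II markers summed to 7.21 and 7.56 FPKM in treated WT and RLKO, fibroblast markers to 9.26 and 3.27, leukocyte markers to 34.9 and 21.5, mostly CD68, and endothelial markers to 2.46 and 0.794. The defining markers COL1A2, of fibroblasts, and EMCN, of endothelium, were listed at 0 in both treated columns. In treated cells the 49 ERCC rows averaging 1 FPKM or more gave WT a scale factor 1.104 times that of RLKO, a log2 shift of 0.14, with 27 rows higher and 22 lower. Scaling by it moved the median log2 ratio of protein-coding genes from -0.14 to -0.26, so ratios below are relative to that choice. Rows of some abundant genes, such as RPS18, RPL7A and TUBB, were listed at 0 in all 4 columns, as were 2247 protein-coding rows in all, so a list below is often not complete.

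Treated cells with RNase L had a different mixture of RNA from treated cells without it. Nuclear protein-coding genes made up 45.2% of total FPKM in treated WT and 65.4% in treated RLKO, where untreated cells had 53.9% (WT) and 59.1% (RLKO). The 9 mitochondrial mRNAs with estimates made up 8.81% in treated WT and 2.42% in treated RLKO. Another 4 mitochondrial mRNAs had a failed estimate and are in none of these shares or counts. Small nuclear RNAs (snRNA), the RNA parts of the spliceosome, made up 8.17% and 2.07%. The RNA of the mitochondrial RNA-processing ribonuclease, RMRP, alone made up 10.1% and 2.83%. Pseudogenes made up 6.25% and 11.6%, a lower share in treated WT, although by number more of their 3405 members were at least 2-fold higher (817) than lower (469).

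**Figure D1:**
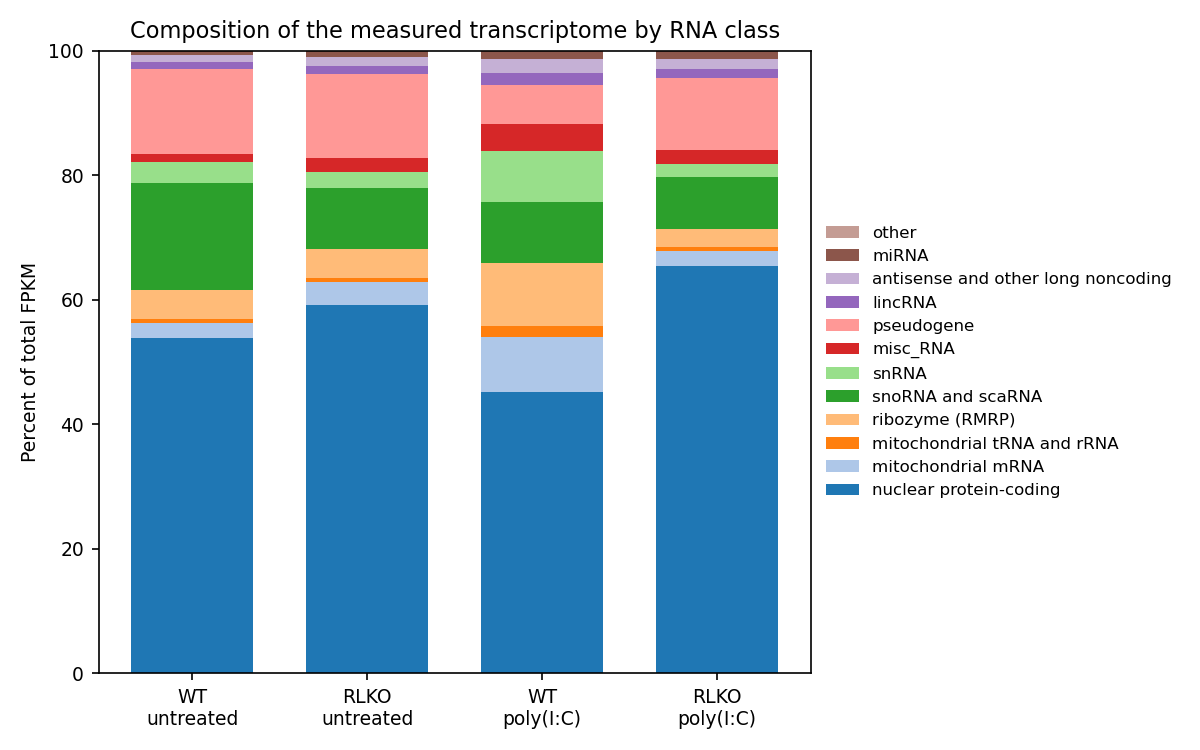
Stacked bars give the percent of total FPKM (vertical axis) in each RNA class for the 4 pooled groups (horizontal axis). The nuclear protein-coding part is 45.2% in treated WT and 65.4% in treated RLKO, while RMRP, snRNA and mitochondrial mRNA take larger parts in treated WT.

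The remaining classes ranged from nearly equal shares to 2.61 times as large a share in treated WT. The snoRNA and scaRNA class, guides for the chemical modification of other RNAs, held 9.78% in treated WT and 8.36% in treated RLKO. That class also differed before treatment, at 17.2% in untreated WT and 9.78% in untreated RLKO. Annotated miRNA genes held 1.26% and 1.28%. The misc_RNA class, which holds 7SL and Y RNA genes, held 4.34% in treated WT and 2.28% in treated RLKO. Mitochondrial tRNA and rRNA held 1.80% and 0.688%, the widest difference of these classes. FPKM divides by length, so short RNAs weigh heavily in these shares. With each FPKM multiplied by transcript length, the difference in nuclear coding share kept its direction. RPPH1, the RNA of ribonuclease P, is not in these shares because its estimate has the status of a failed one, though the table lists 95342 FPKM for treated WT and 76833 FPKM for treated RLKO.

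Total FPKM was more concentrated in its most abundant rows in treated WT. The 10 most abundant rows held 22.1% of it in treated WT and 9.61% in treated RLKO, against 14.2% and 12% in the untreated lines. The 100 most abundant held 42.4% and 29.9%. Over the 1000 most abundant the groups were close, at 67.0% and 65.2%. It took 215 rows to reach 50% of the total in treated WT and 369 in treated RLKO. Without RMRP the 10 most abundant rows held 14.2% and 7.45%, and 340 and 403 rows reached 50%. RPPH1, left out as a failed estimate, is listed above RMRP in both groups, at 95342 FPKM (treated WT) and 76833 FPKM (treated RLKO). Shares of the first rows therefore depend on leaving it out. Among protein-coding rows alone the order turned: 462 rows reached 50% in treated WT and 420 in treated RLKO, although the 10 most abundant still held more in WT, 16.8% against 6.67%. With rows of transcripts under 300 bases left out, or with FPKM multiplied by length, treated WT also needed more rows than treated RLKO to reach 50%, 1.36 and 1.12 times as many. The top of the coding list in treated WT was mitochondrial. More rows reached 1 FPKM in treated WT, 20560 against 16480 in treated RLKO, while the untreated lines had 16346 (WT) and 17293 (RLKO).

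**Figure D2:**
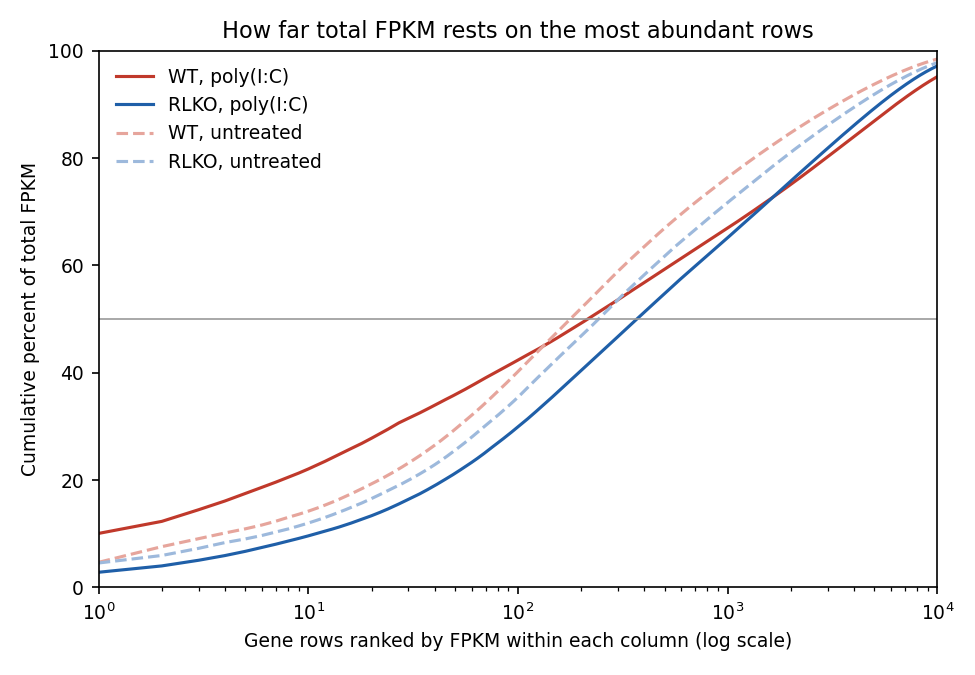
Curves give the cumulative percent of total FPKM (vertical axis) over gene rows ranked by FPKM within each column (horizontal log axis) for the 4 pooled groups, with a line at 50%. With RPPH1 left out, the treated WT curve starts highest, at 10.1% for its first row, RMRP, and meets the treated RLKO curve beyond 1000 rows.

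The single most abundant rows show where the share went. In treated WT the 10 most abundant protein-coding rows were the 9 measured mitochondrial mRNAs and ACTG1, the cytoplasmic gamma-actin gene. MT-CO2, a subunit of cytochrome c oxidase, was at 18682 FPKM in treated WT and 6621 FPKM in treated RLKO. In treated RLKO only MT-CO2 and MT-ND4, a complex I subunit, were among the 10. The other 8 were FTL (ferritin light chain), the histone genes HIST1H3B, HIST1H4C and HIST1H4D, the ribosomal protein genes RPS19 and RPL37A, RACK1, which encodes a protein of the small ribosomal subunit, and ACTG1. FTL was at 2064 FPKM in treated WT and 4738 FPKM in treated RLKO, and at 5536 and 5108 FPKM in untreated WT and RLKO. ACTG1 differed less, at 2361 FPKM in treated WT and 3116 FPKM in treated RLKO.

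Among abundant noncoding rows, MALAT1, a long RNA kept in nuclear speckles, held nearly the same share in both treated groups, 0.795% in WT and 0.727% in RLKO, but had held 0.228% in untreated WT and 0.457% in untreated RLKO. RN7SL3, a 7SL RNA of the signal recognition particle, was at 18152 FPKM in treated WT and 8885 FPKM in treated RLKO, but was listed at 0 in untreated WT and at 13238 FPKM in untreated RLKO, so its value may depend on how reads were shared among 7SL copies. SNORA48, a guide RNA for pseudouridylation, was the reverse, at 6138 FPKM in treated WT and 9954 FPKM in treated RLKO. It had been higher in untreated WT, 43732 against 16510 FPKM. MIR622, an annotated miRNA gene, held 0.304% in treated WT and 0.872% in treated RLKO, and 0.389% and 0.640% in the untreated lines.

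The 5 short noncoding RNAs below are shown in full because they lay at different places in the comparison: RMRP, RNU11 and RNU4ATAC were far higher in treated WT, RNU6ATAC was nearly level and RNY4 was lower. U11, U4atac and U6atac are RNAs of the minor spliceosome, which removes a rare class of introns, and U4atac pairs with U6atac. Y4 RNA binds the Ro60 protein. Sequences are those of GENCODE version 29 on GRCh38, 5′ to 3′, and capitals mark every UA and UU.
RMRP: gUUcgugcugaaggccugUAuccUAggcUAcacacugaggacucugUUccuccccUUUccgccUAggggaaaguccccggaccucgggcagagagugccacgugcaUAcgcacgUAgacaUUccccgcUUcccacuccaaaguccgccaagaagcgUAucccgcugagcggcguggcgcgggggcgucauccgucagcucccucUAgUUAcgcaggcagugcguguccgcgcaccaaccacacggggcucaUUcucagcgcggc
RNU11: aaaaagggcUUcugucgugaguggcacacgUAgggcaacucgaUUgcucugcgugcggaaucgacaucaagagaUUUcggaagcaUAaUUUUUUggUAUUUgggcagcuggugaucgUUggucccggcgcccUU
RNU4ATAC: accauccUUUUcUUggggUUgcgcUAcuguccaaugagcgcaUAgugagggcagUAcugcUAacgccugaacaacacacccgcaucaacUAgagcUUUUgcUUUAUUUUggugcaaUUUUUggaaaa
RNU6ATAC: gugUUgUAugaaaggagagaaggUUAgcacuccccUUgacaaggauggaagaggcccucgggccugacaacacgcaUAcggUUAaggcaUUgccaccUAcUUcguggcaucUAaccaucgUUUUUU
RNY4: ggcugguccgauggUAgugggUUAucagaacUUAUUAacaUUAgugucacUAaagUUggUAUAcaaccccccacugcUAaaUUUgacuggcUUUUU

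RMRP lies at chr9:35657754-35658017 on the minus strand, RNU11 at chr1:28648600-28648733 and RNU4ATAC at chr2:121530881-121531007, both on the plus strand, RNU6ATAC at chr9:134164439-134164564 on the minus strand and RNY4 at chr7:148963315-148963410 on the plus strand. Each is a gene of 1 exon, and the exon is the whole RNA. RMRP holds 6.46 UA and UU per 100 dinucleotides, RNU11 12.03, RNU6ATAC 13.6, RNU4ATAC 18.3 and RNY4 21.1. These 5 RNAs were chosen for their different places in the comparison, so they cannot show whether density goes with the ratio. UA and UU occur in all 5, and a match is a count of letters, not a cut site.

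RMRP was at 83906 FPKM in treated WT and 23830 FPKM in treated RLKO, and at 70209 and 56341 FPKM in untreated WT and RLKO. A second row named RMRP covers the same place, at 437 and 264 FPKM in treated WT and RLKO, and reads between the pair cannot be told apart. RNU11 was at 9624 FPKM in treated WT and 703 FPKM in treated RLKO, against 1154 and 990 FPKM in untreated cells. RNU4ATAC was at 4400 and 319 FPKM in treated cells, and the lines already differed untreated, at 677 and 266 FPKM. RNU12, the U12 RNA of the same spliceosome, was at 4056 FPKM in treated WT and 1244 FPKM in treated RLKO, and at 4558 and 2607 FPKM untreated. RNU6ATAC was at 1241 FPKM in treated WT and 1553 FPKM in treated RLKO, unlike its partner, and at 8585 and 2994 FPKM untreated. The major spliceosome U5 genes RNU5A-1, RNU5B-1, RNU5D-1 and RNU5E-1 had log2 ratios of 1.78, 1.92, 2.78 and 2.24, and RNU5B-1 had one of -1.01 untreated. U5 genes are near-identical copies, so how reads were divided among them is uncertain.

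The Y RNAs went the other way. RNY4 was at 54.8 FPKM in treated WT and 293 FPKM in treated RLKO, although untreated WT had more of it, 548.6 against 204 FPKM. RNY3 was at 31.9 and 171 FPKM in treated WT and RLKO, and RNY1 at 542 and 1572 FPKM. Both had been higher in untreated WT, with log2 ratios of 0.89 and 0.91. Among vault RNAs, parts of a large cytoplasmic particle, VTRNA1-2 had a log2 ratio of 1.49 treated and 1.91 untreated, VTRNA1-1 had 0.44 and -0.15, and VTRNA2-1 had -0.14 and 0.82. NEAT1, the scaffold RNA of nuclear paraspeckles, was at 358 FPKM in treated WT and 71.0 FPKM in treated RLKO, and had been lower in untreated WT, 56.9 against 95.9 FPKM. Of the 39 measured members of the list of nuclear-retained and structured noncoding RNAs, 14 (35.9%) were at least 2-fold higher in treated WT. In that list 4 (10.3%) were at least 2-fold lower. Over all members 20.2% were higher and 8.2% lower. The list held 15.6% of total FPKM against 5.61%, 2.79 times as much. That ratio was 1.80 with the rows of failed status that carry values added, RPPH1 of this list among them, 1.75 with FPKM multiplied by length and 1.30 without rows under 300 bases.

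Over all members, 4294 (20.2%) were at least 2-fold higher in treated WT and 1743 (8.2%) at least 2-fold lower. Most of the higher rows were noncoding: among protein-coding members 830 (6.91%) were higher and 949 (7.91%) lower. Scaled to the ERCC rows, 600 coding members were higher and 1380 lower. Of the 1000 lincRNA members, 466 were at least 2-fold higher in treated WT and 9 lower, with a median log2 ratio of 0.95. Of 2772 antisense and other long noncoding members, 1006 were higher and 44 lower, with a median of 0.81. These classes are mostly low: 584 lincRNA members reached 1 FPKM in treated WT alone and 20 in treated RLKO alone, and a row that entered through 1 group had to differ. Among the 68 lincRNA rows with a mean of 10 FPKM or more in untreated cells, a choice made without the treated values, 14 were at least 2-fold higher and 4 lower in treated WT, with a median of 0.24. The counts over the members are therefore no measure of how far the class differed. Long noncoding RNAs as a class are often kept in the nucleus.

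The snRNA class had the same direction in 464 of 570 members, with 365 at least 2-fold higher and 69 lower. Most snRNA rows are copies that resemble one another. Here too 232 members reached 1 FPKM in treated WT alone and 64 in treated RLKO alone. Among the 95 snRNA rows with a mean of 10 FPKM or more in untreated cells, 60 were at least 2-fold higher in treated WT and 5 lower, with a median log2 ratio of 1.48 treated and 0.05 untreated. Of the 6984 protein-coding rows chosen in the same way, 1.95% were higher and 12.3% lower.

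Most nuclear protein-coding genes differed little: 7226 of 11995 (60.2%) were within 1.5-fold. Pearson's r between the treated groups on the log2 scale was 0.938 across these genes, which share libraries and are not independent. The standard deviation of the log2 ratio across genes was 0.71 in treated cells and 0.32 in untreated cells. In untreated cells 57 of these genes were at least 2-fold higher in WT and 64 lower, against 821 and 949 in treated cells. Of those 821 and 949, 26 and 25 were also past 2-fold, in the same direction, before treatment. The median log2 ratio was -0.14 treated and -0.01 untreated.

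**Figure D3:**
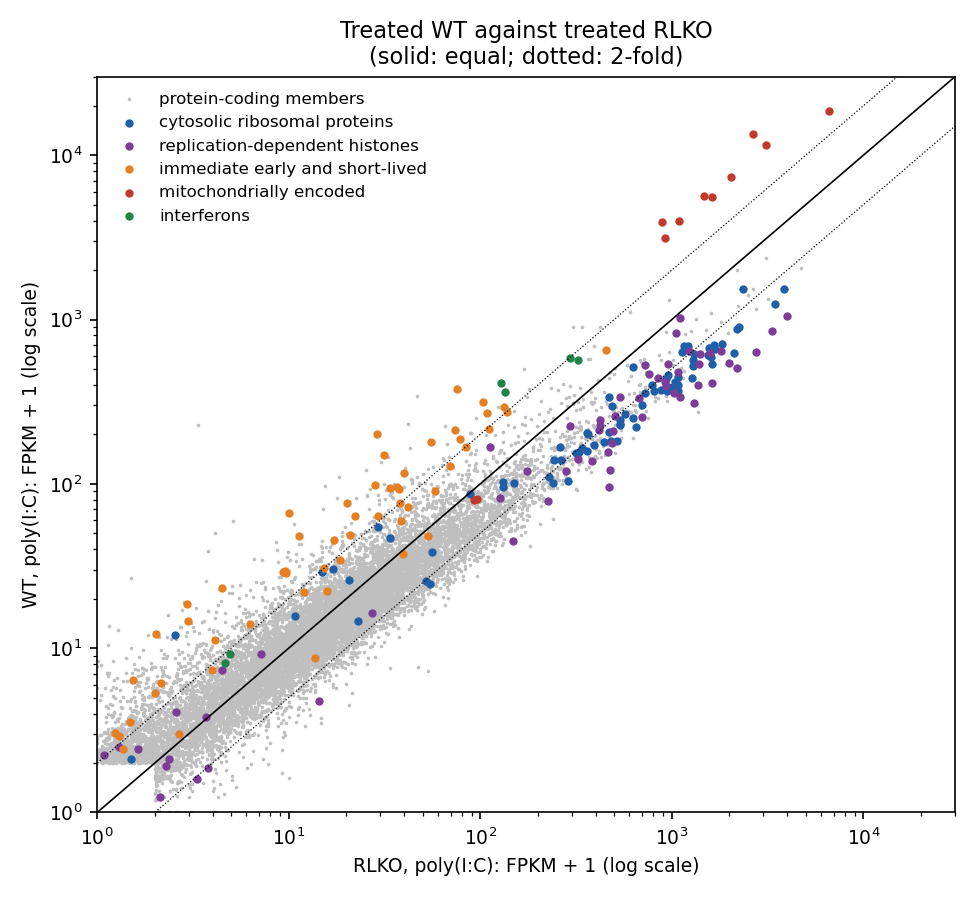
Each point is a protein-coding gene by its FPKM plus 1 in treated RLKO (horizontal log axis) and treated WT (vertical log axis), with members of 5 lists coloured, a solid line at equality and dotted lines at 2-fold. Ribosomal protein and histone genes sit near or below the lower dotted line, and mitochondrial mRNAs and most immediate early genes near or above the upper one. The 2 mitochondrially encoded points near 100 FPKM are the rRNAs.

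The lists of ribosomal protein and oxidative phosphorylation genes had the lowest medians in treated WT relative to treated RLKO, beside that of endoplasmic reticulum genes. Counts of each list below are to be read beside all coding members, of which 7.91% were at least 2-fold lower and 6.91% higher. Lists were not matched by untreated level, which the ratio followed, as described below. Of 76 cytosolic ribosomal protein genes, 49 were at least 2-fold lower and 1 was higher, with a median log2 ratio of -1.14 against -0.14 over all coding members and 0.39 for the same genes in untreated cells. Together they held 3.21% of total FPKM in treated WT and 7.26% in treated RLKO, against 9.24% and 8.51% in the untreated lines. RPS19, of the small subunit, was at 1534 FPKM in treated WT and 3829 FPKM in treated RLKO. RPL37A, of the large subunit, was at 1250 and 3470 FPKM. RPS21 had the lowest ratio, at 623 and 2121 FPKM. The exception, RPS28, was measured at only 11.01 and 1.55 FPKM, and ribosomal protein genes have many near-identical processed copies that can take their reads.

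Mitochondrial ribosomal protein genes, which are nuclear, also had a median below 0: 22 of 77 were at least 2-fold lower, and 76 of 77 had a ratio below 0, with a median of -0.80. All 76 nuclear-encoded oxidative phosphorylation genes had a ratio below 0, 46 of them at least 2-fold, with a median of -1.09. UQCRQ, a complex III subunit, was at 152 FPKM in treated WT and 503 FPKM in treated RLKO. COX7C, of cytochrome c oxidase, was at 275 and 728 FPKM. The same complexes had subunit mRNAs that differed in opposite directions by genome. MT-CYB, the complex III subunit made inside mitochondria, was at 5685 FPKM in treated WT and 1474 FPKM in treated RLKO. MT-ND4L, of complex I, was at 13495 and 2652 FPKM. All 9 measured mitochondrial mRNAs were at least 2-fold higher in treated WT, with log2 ratios of 1.496 (MT-CO2) to 2.35 (MT-ND4L). Their median in untreated cells was -0.52. The mitochondrial rRNAs MT-RNR1 and MT-RNR2 had ratios of -0.24 and -0.23, against 2.53 and 2.33 untreated, after depletion of ribosomal RNA.

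Replication-dependent histone mRNAs end in a stem-loop without a poly(A) tail. Of 59 measured, 32 were at least 2-fold lower in treated WT and 1 higher, and they held 2.08% of total FPKM against 5.30% in treated RLKO. HIST1H3B was at 1047 FPKM in treated WT and 4001 FPKM in treated RLKO. HIST1H4C was at 854 and 3335 FPKM. Untreated cells had close shares, 3.62% (WT) and 3.54% (RLKO). Histone genes of a type are near-identical copies, so single members are uncertain.

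Lists of protein synthesis, folding and turnover genes also had medians below 0. Among 18 cytosolic aminoacyl-tRNA synthetases, which charge tRNAs with amino acids, 10 were at least 2-fold lower and all 18 below 0, with a median of -1.01. EPRS was at 33.1 FPKM in treated WT and 95.4 FPKM in treated RLKO. Of 61 genes of the translation factor list, 10 were at least 2-fold lower and 0 higher, with a median of -0.36. EEF1A1, the elongation factor that brings charged tRNA to the ribosome, was at 145 and 423 FPKM. EIF4A1, the helicase of initiation, differed less, at 853 and 1260 FPKM. Of 38 genes for translocation into and folding in the endoplasmic reticulum, 23 were at least 2-fold lower, with a median of -1.11. P4HB, protein disulfide isomerase, was at 312 and 694 FPKM. Of 39 proteasome genes 13 were at least 2-fold lower, and PSMA4, of the core particle, was at 171 and 462 FPKM. Of 23 chaperone genes 4 were, among them HSPA8, the constitutive Hsp70, at 825 and 1967 FPKM. Lower genes made up 55.6%, 16.4%, 60.5%, 33.3% and 17.4% of these lists, in the order given, against 7.91% of all coding members. Among the highest of 5 groups of nuclear coding genes by untreated level 26.3% were lower, with a median of -0.69.

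Metabolic, cell cycle and structural gene lists also had medians below 0. Of 23 glycolysis and pentose phosphate genes, 7 were at least 2-fold lower, with a median of -0.89. GAPDH, often used as a reference gene, was at 1160 FPKM in treated WT and 2736 FPKM in treated RLKO, and at 3385 and 3552 FPKM in untreated cells. Of 28 NRF2 target and aldo-keto reductase genes 11 were at least 2-fold lower, with a median of -0.87. Of 43 cell cycle and replication genes 9 were, with PCNA, the replication clamp, at 126 and 261 FPKM. Of 37 cytoskeletal genes 9 were, and ACTB, beta-actin, another usual reference, was at 1100 and 1596 FPKM. KRT8, a keratin of simple epithelia, was at 317 and 944 FPKM. In none of these 4 lists was a measured gene at least 2-fold higher. Lower genes made up 30.4%, 39.3%, 20.9% and 24.3% of them, in the order given, against 7.91% of all coding members. Among the highest of 5 groups of nuclear coding genes by untreated level the share was 26.3%, with a median of -0.69. These lists were not matched by level, so the counts are no trait of their functions alone.

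**Figure D4:**
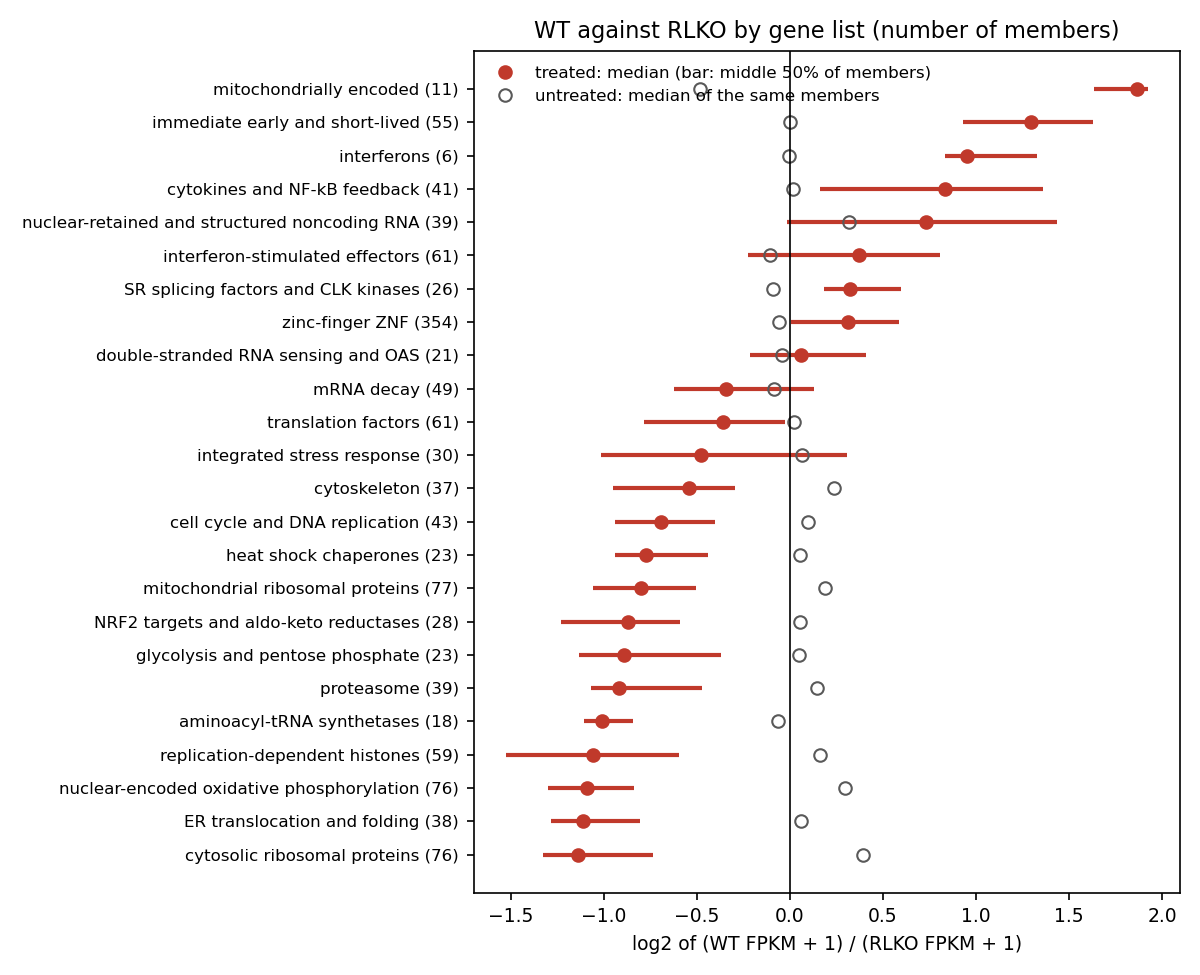
Filled points give the median log2 ratio of WT to RLKO in treated cells for the measured members of each of 24 gene lists, bars the middle 50% of members, and open points the median of the same members in untreated cells. Lists run from cytosolic ribosomal proteins at -1.14 to mitochondrially encoded RNAs at 1.87, and untreated medians lie between -0.49 and 0.39.

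Genes of the antiviral response were not lower as a group. All 6 interferon genes that reached 1 FPKM were above 0, 2 of them at least 2-fold higher in treated WT. IFNB1, the type I interferon made first, was at 565 FPKM in treated WT and 322 FPKM in treated RLKO. IFNL1, a type III interferon, was at 583 and 292 FPKM. IFNL2 was at 363 and 134 FPKM and IFNL3 at 412 and 128 FPKM, and these are near-identical copies. None of these 4 exceeded 0.1 FPKM in untreated cells of either line.

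Interferon-stimulated effectors were split. Of 61, 9 (14.8%) were at least 2-fold higher and 2 (3.28%) lower in treated WT, against 6.91% and 7.91% of all coding members. The median log2 ratio was 0.37, and the list held 0.719% of total FPKM against 0.481%. IFIT2, which binds foreign RNA and limits its translation, was at 1113 FPKM in treated WT and 604 FPKM in treated RLKO. IFIT3 was at 335 and 175 FPKM. IFIT1, of the same family, was at 333 and 397 FPKM, the other way. ISG15, the ubiquitin-like modifier, was at 294 and 344 FPKM. HELZ2, a helicase, was at 84.2 and 24.5 FPKM. ZC3HAV1, the zinc-finger antiviral protein, was at 370 and 135 FPKM. The 2 lower genes were IFI44L, at 1.89 and 8.36 FPKM, and IFI16, a DNA sensor, at 12.6 and 26.8 FPKM.

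The sensing pathway upstream of RNase L was close to level. Of 21 genes for double-stranded RNA sensing and 2-5A synthesis, 2 (9.52%) were at least 2-fold higher and 0 lower in treated WT. Over all coding members 6.91% were higher. The list had a median of 0.06. On the ERCC scale that median was -0.07, so the list had no stable direction. OAS3, the synthetase with the greatest part in activating RNase L, was at 97.8 FPKM in treated WT and 67.9 FPKM in treated RLKO. OAS1 was at 140 and 197 FPKM, and at 71.6 and 49.5 FPKM untreated, and OAS2 at 31.3 and 12.2 FPKM. OASL, which makes no 2-5A, was at 231 and 164 FPKM. EIF2AK2 (PKR), a kinase that stops translation on sensing double-stranded RNA, was at 44.4 and 38.2 FPKM. DDX58 (RIG-I) was at 141 and 163 FPKM, and IFIH1 (MDA5) at 153 and 88.4 FPKM. DHX58 (LGP2), the third member of that sensor family, had the highest ratio of the list, at 37.3 and 8.86 FPKM.

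The lists of inflammatory and immediate early genes had medians above 0, though not every member did. Of 41 cytokine and NF-kB feedback genes, 17 (41.5%) were at least 2-fold higher, against 6.91% of all coding members, and 0 at least 2-fold lower. The list median was 0.83, with 8 genes below 0. NFKBIA, the inhibitor that NF-kB induces to end its own activity, was at 895 FPKM in treated WT and 303 FPKM in treated RLKO. NFKBIZ, an atypical member of that family, was at 341 and 46.0 FPKM. CXCL2, a neutrophil chemokine, was at 229 and 41.2 FPKM, and CCL20 at 95.8 and 14.5 FPKM. CCL2, a monocyte chemokine, was level, at 466 and 495 FPKM. CXCL10, a chemokine that interferon induces, was at 33.9 and 46.1 FPKM.

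Of 55 immediate early and short-lived genes, 38 (69.1%) were at least 2-fold higher, against 6.91% of all coding members, and 0 lower. These genes had a median of 1.30. They held 0.625% of total FPKM in treated WT and 0.263% in treated RLKO. EGR1, a transcription factor induced within minutes of a stimulus, was at 199 FPKM in treated WT and 27.96 FPKM in treated RLKO. FOS, of the AP-1 factor, was at 65.7 and 9.04 FPKM, and ZFP36, which promotes decay of AU-rich mRNAs, at 378 and 74.9 FPKM. The median of this list was 0.00 in untreated cells.

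The integrated stress response list divided by member. Of 30 genes, 8 (26.7%) were at least 2-fold lower and 2 (6.67%) higher in treated WT, with a median of -0.48. Over all coding members 7.91% were lower and 6.91% higher. The 2 higher were PPP1R15A (GADD34), the phosphatase subunit that restores translation, at 896 and 340 FPKM, and ATF3, a transcription factor, at 222 and 64.7 FPKM. ATF4, the central transcription factor, was at 160 and 127 FPKM. Among the 8 lower genes, ASNS (asparagine synthetase) was at 19.3 and 66.6 FPKM and PSAT1, of serine synthesis, at 33.1 and 107 FPKM. SLC3A2, an amino acid transporter subunit, was at 434 and 837 FPKM.

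Regulators of RNA and transcription lay between these extremes. Of 354 measured ZNF zinc-finger genes, 26 (7.34%) were at least 2-fold higher, near the 6.91% of all coding members, and 4 (1.13%) lower, against 7.91%. Their median was 0.31, with 267 above 0. Of 26 SR splicing factor and CLK kinase genes, 1 (3.85%) was at least 2-fold higher, SRRM2, at 204 and 88.8 FPKM. The median of that list was 0.32. CLK1, which phosphorylates SR proteins, was at 100 and 50.7 FPKM. Of 49 mRNA decay genes 6 (12.2%) were at least 2-fold lower and 1 (2.04%) higher, with a median of -0.34. Coding rows with a mean of 10 FPKM or more in untreated cells were close to this. Of those, 12.3% were lower and 1.95% higher, with a median of -0.38. The higher one was PAN2, a deadenylase, at 43.9 and 13.95 FPKM. The lower ones included LSM5, of the LSM ring, at 62.7 and 162 FPKM.

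The protein-coding genes with the largest ratios, chosen for that ratio, were mostly low in untreated cells, 7 of 10 being under 1 FPKM in both lines. TULP2, at chr19:48880965-48898733, was at 226 FPKM in treated WT and 2.34 FPKM in treated RLKO, and at 0.241 FPKM or less in untreated cells. Its nearest coding neighbour on one side is PPP1R15A, described above, 4907 bases away on the opposite strand, past the 3′ side of PPP1R15A. ADAMTSL4 was at 25.8 and 0.494 FPKM. It lies 13613 bases from MCL1, an anti-death gene, which was at 293 and 132 FPKM. SLC16A12 was at 12.6 and 0.156 FPKM and lies 9297 bases past IFIT5, which was at 54.6 and 31.3 FPKM. FAP was at 58.5 and 4.12 FPKM and lies 21927 bases past IFIH1. TMEM88 was at 11.9 and 0.286 FPKM and lies 268 bases past KDM6B, a histone demethylase gene at 109 and 17.4 FPKM. In each of these 5 cases, noticed after the values were seen, the gene lay on the 3′ side of a neighbour that was itself higher in treated WT. Whether transcription from the neighbour gave these reads was not tested, since the sources used here do not give the strand of the reads. The others of the 10 were DIO2, SLC1A3, NFKBIZ, EGR1 and TBX3.

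Among the 10 coding genes with the smallest ratios, also chosen for them, 4 were histone genes: HIST1H3F, HIST1H4D, HIST1H3J and HIST1H2AB. Their log2 ratios before treatment were 0.14 to 0.48. MMP7, KRT19, SPP1 and OLFML3 were lower in WT before treatment too. MMP7, a matrix protease, was at 6.23 FPKM in treated WT and 52.4 FPKM in treated RLKO, and at 19.04 and 56.4 FPKM in untreated cells. SPP1, osteopontin, was at 273 and 1364 FPKM in treated cells and at 1595 and 3986 FPKM in untreated cells. For these 4 the lines differed without poly(I:C). CEP97, a centriole protein gene, was at 6.60 and 32.8 FPKM treated and at 53.1 and 39.9 FPKM untreated. MPP6, a membrane scaffold gene, was at 40.8 and 180 FPKM.

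The ratio followed the level of a gene before treatment. When the 11995 nuclear coding genes were put in 5 groups of equal size by their mean FPKM in untreated cells, the median log2 ratio was 0.48, 0.08, -0.12, -0.32 and -0.69 from the lowest to the highest group. In the highest group 26.3% of genes were at least 2-fold lower in treated WT and 0.667% higher, and in the lowest 1.29% were lower and 21.7% higher. Spearman's rho across genes was -0.58 treated and 0.15 untreated. So the abundant mRNAs of the cell stood lower in treated WT. The value of the lowest group is no measure of scarce mRNAs, because such genes could enter through the treated group where they were high. Of the nuclear coding genes, 860 reached 1 FPKM in treated WT alone and 178 in treated RLKO alone. Genes under 0.9 FPKM untreated had a median of 0.87, and those from 0.9 to 1.88 FPKM one of 0.35. The groups above the lowest still fell from 0.08 to -0.69.

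The ratio also followed mRNA half-life. The authors' table gives half-lives in hours from another study, for 79.0% of these genes, so the rest are not covered. Over the 9479 genes with one, the median log2 ratio went from 0.25 in the shortest-lived of 5 groups to -0.68 in the longest-lived. Among the 9302 genes with 5 FPKM or more in either treated column 87.5% had one. There the median log2 ratio went from 0.17 in the group of shortest half-life (median 2.53 h) to -0.74 in the group of longest half-life (median 18.4 h). In untreated cells the same groups had -0.06 and 0.11. Long-lived mRNAs were also the abundant ones, with a median untreated level of 67.3 FPKM against 11.7 FPKM for the shortest-lived group. Genes with a half-life were also put in 3 groups by untreated level. In the middle one the shortest-lived and longest-lived genes had 0.05 and -0.46, at median levels of 16.8 and 19.6 FPKM. The lowest level group had 0.46 and -0.10, and the highest -0.31 and -0.92.

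Length and base composition showed weaker relations. By coding length, the median ratio was -0.42 in the shortest group (median 528 bases) and 0.01 in the longest (median 3534 bases). In untreated cells the order was the opposite, 0.14 and -0.17. Within the highest of 3 groups by untreated level, the shortest and longest coding groups had -0.83 and -0.31, and within the lowest of the 3 they had 0.42 and 0.26, so the relation turned with level. By UA and UU in the coding sequence, the median was 0.16 in the group with fewest (median 3.65 per 100 dinucleotides) and -0.40 in the group with most (median 13.5). Untreated cells had the same direction with a smaller range, 0.08 to -0.11. Spearman's rho was -0.29 treated and -0.24 untreated, so a relation of this direction was there before treatment. Within the highest of the 3 level groups the values were -0.40 and -0.67, and within the lowest 0.47 and 0.12. By GC percent the medians were -0.33 in the lowest group and 0.10 in the highest, against -0.16 and 0.09 in untreated cells, and Spearman's rho was 0.23 treated and 0.30 untreated, so the relation was there before treatment. GC and UA or UU content are linked by construction. These are descriptions across genes of 2 pooled values.

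**Figure D5:**
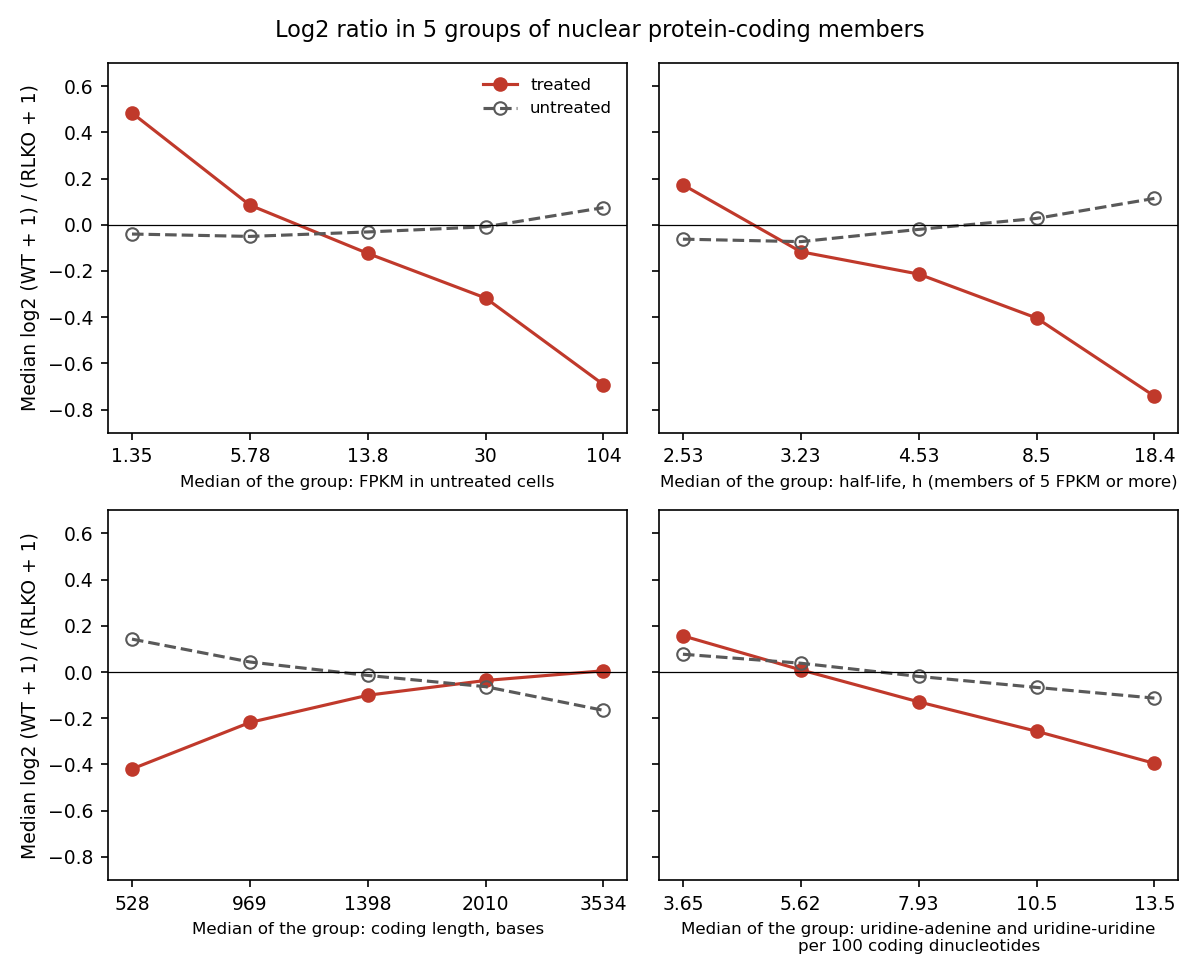
Points give the median log2 ratio of WT to RLKO in 5 equal groups of nuclear coding genes ordered by untreated FPKM, half-life in hours, coding length in bases and UA plus UU per 100 coding dinucleotides; filled points are treated cells, open points untreated cells, and tick labels give each group's median. Treated medians run from 0.48 to -0.69 over level and from 0.17 to -0.74 over half-life.

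Genes of 1 exon stood apart from the rest once histones were set aside. The 265 genes whose GENCODE transcript has 1 exon and whose name does not begin with HIST had a median log2 ratio of 0.46, with 54 at least 2-fold higher and 5 lower in treated WT. The 11680 genes with 2 or more exons had a median of -0.15, with 766 higher and 918 lower. In untreated cells these medians were 0.02 and -0.01. No level was matched in this comparison.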

How the data were processed

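RNA-seq of 12 A549 samples was deposited by the authors as 1 table with 1 FPKM value per gene for each of 4 groups of 3 samples. FastQC, Trimmomatic 0.32, TopHat2 2.0.6, Bowtie2 2.0.2, Cuffdiff 2.2.1 and build GRCh38.p12 are named in the submitters' processing notes, without settings. Whether same-group samples were separate cultures, read depth, strand and scaling between libraries are not given in the sources used here, so depth is unknown and the precision of a value cannot be given. GC percent, transcript lengths in bases and half-lives in hours are columns of the deposited table, the last taken from another study per the file headers.

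Rows with status HIDATA (86, a failed estimate) and 45 repeated identifiers were left out. Gene types, exons and sequences came from GENCODE version 29 (GRCh38), to which gene identifiers were matched. From the deposited FPKM, percent of total FPKM was computed over all other gene rows without ERCC rows, and the log2 ratio as log2 of (WT + 1) over (RLKO + 1). The limit of 1 FPKM left 37271 rows out; 530 members lay at 1 to 1.1 FPKM and 574 rows just outside, at 0.9 to 1. Scripts (Python 3.11, pandas 2.3.3, numpy 2.4.6) were tested on simulated data. Genes were named by rule: 19 fixed genes, the 10 most abundant coding and 10 other rows of each treated column, the 10 largest and 10 smallest coding ratios at 10 FPKM or more, 5 and 5 noncoding, and for each list the 2 most abundant and 2 farthest from 0. Other genes named with a value were chosen after their values were seen. Members, lists and rules were chosen with earlier results of these data known, and coding length, exons, UA and UU content, grouping by level and noncoding rows chosen by untreated level were added after seeing the data. Alternatives were another pseudocount, other FPKM limits, 3 scalings, and other sums for shares. The level of the targeted gene is not reported here.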

Additional observations from a re-analysis of the deposited data

How the results depend on the processing

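No paired analysis was possible because the deposited table holds 1 pooled value per group, for which reason leaving out a replicate was not run either. Sizes here are values, not tests, and depth is unknown. Of 352 recomputed values 331 kept their direction and stayed within 1.5-fold or 0.2 log2 units of the reported one. The 949 coding genes at least 2-fold lower in treated WT became 1486, and the 830 higher became 651, with scaling by the median of ratios. With the ERCC scale they became 1380 and 600, so that 30.3% of calls were higher instead of 46.7%. The higher count was 1357 with a pseudocount of 0.1 FPKM, since low genes then pass, and 504 with a limit of 5 FPKM, since fewer genes enter. Of the 24 lists, 15 had a median below 0 as deposited and 16 with either of those scalings, where double-stranded RNA sensing turned to -0.0695 (ERCC) and -0.0870 (median of ratios). Of 119 recomputed list shares, 115 stayed on the same side of equality. The others were all the integrated stress response, whose share in treated WT was 0.97 times that in treated RLKO but 1.22 times among coding rows, 1.25 times without rows under 300 bases, 1.07 times with FPKM weighted by length and 1.05 times without RMRP, an alternative chosen after seeing the data. The rows that held 50% of the total, 0.583 times as many in treated WT, became 1.1 times among coding rows, 1.36 times without rows under 300 bases and 1.12 times weighted by length. The share of the 10 most abundant rows, 2.30 times as large in treated WT, became 1.49 times weighted by length. The snoRNA and scaRNA share turned from 1.17 to 0.993 times without rows under 300 bases, since the short members leave. By number of exons, the median ratio of the highest minus the lowest group turned from -0.10 to 0.0325 at 5 FPKM. Where no reason is given, the cause was not tested.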

Other observations

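Processed pseudogenes are intronless copies of mRNAs. The 283 members named for ribosomal protein genes held 1.18% of total FPKM in treated WT and 2.83% in treated RLKO. By number, 79 (27.9%) were at least 2-fold lower and 81 (28.6%) higher, and the middle 50% of their log2 ratios ran from -1.11 to 1.06. RPS29P16, the most abundant of those named by rule, was at 1110 FPKM in treated WT and 3154 FPKM in treated RLKO, and at 10667 and 6536 FPKM in untreated cells. The other 2442 processed pseudogenes held 4.23% and 7.98%, with 345 (14.1%) lower and 517 (21.2%) higher. Over all members 8.2% were lower and 20.2% higher. Of all processed pseudogenes, 831 reached 1 FPKM in treated WT alone and 175 in treated RLKO alone, so these counts also depend on the limit of 1 FPKM. Reads of a parent mRNA and of such a copy may not be separable, and how the authors' counting treated them was not tested.

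Several noncoding rows at the ends of the comparison belong to families of copies. RNU1-92P, a U1 pseudogene, was at 123 FPKM in treated WT and 1.65 FPKM in treated RLKO, and RN7SL473P, a 7SL pseudogene, at 75.1 and 1.01 FPKM. RN7SL473P lies at chr1:150566562-150566860 on the minus strand, between ADAMTSL4 and MCL1, on the 3′ side of MCL1. Whether its reads came from other 7SL copies or from transcription past MCL1 was not tested. NDUFB4P11, a pseudogene named for a complex I subunit gene, was at 39.8 and 0.486 FPKM. At the other end, CYCSP6, a cytochrome c pseudogene, was at 1.09 and 15.8 FPKM, but it was already at 1.93 and 26.9 FPKM in untreated WT and RLKO. RNU6-513P, a U6 pseudogene, was at 1.29 and 13.5 FPKM.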
